A study of Caenorhabditis elegans with 8 samples.

Results

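Introns of 1000 nucleotides or more were examined in a splice junction study of the nematode Caenorhabditis elegans, in which worms depleted of the kinase SPK-1 were set against control worms. The members were chosen by length alone, as the listed introns spanning at least 1000 nucleotides, with 1 copy kept of an intron listed on both strands. The table lists 20324 introns, of which the 10 of spk-1 itself, 1 of them of this length, were set aside because the treatment targets that gene. There were 1648 long introns among the 20314 that remained, and the other 18666 were shorter. The first group was 4 libraries labelled spk-1(RNAi), from N2 worms (the standard wild-type strain) moved as L4 larvae to Escherichia coli that expressed spk-1 double-stranded RNA, which silences the matching gene when eaten. The second group was 4 control libraries from N2 worms moved at the same stage to bacteria carrying the empty feeding vector L4440. Both groups were grown at 20 °C, fed for 24 h at 25 °C and collected as whole adult worms, at least 100 per condition. Polyadenylated RNA was sequenced with the strand marked by dUTP. The labels do not state that replicates are separate cultures, and the p-values therefore rest on the spread among these libraries alone, which may be technical.

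An intron is removed by the spliceosome, which joins the donor site at its upstream end to the acceptor site at its downstream end. SR proteins are RNA-binding proteins that help the spliceosome find these sites, and SPK-1 is the worm member of the kinase family that phosphorylates them. Most introns of this nematode are very short, and in a long intron the paired sites lie far apart with much intronic sequence, and sometimes other genes or promoters, between them. The measurement was the number of reads that cross the junction left when an intron is spliced out. A retained intron leaves no such read and was not measured.

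The libraries held between 2660062 and 40426751 junction reads after spk-1(RNAi), and between 1821717 and 47299659 in control. Replicates 3 and 4 stood apart from replicates 1 and 2 in both groups. Across introns, log2 read levels correlated at 0.932 to 0.971 among the libraries of replicates 3 and 4, and at only 0.67 to 0.771 between those and the libraries of replicates 1 and 2. Libraries with the same replicate number also deviated together from their group means, so each test was run both without and with a term for the replicate number (the block). Of the 10 introns of spk-1, 8 were lower and 2 higher after spk-1(RNAi) in all 4 pairs, and together they took 0.178% to 6.25% of junction reads after spk-1(RNAi) and 0.0464% to 0.0628% in control. Genes that mark tissues were unevenly represented, with listed introns in 55 of 57 germline and oocyte genes, 17 of 24 intestinal genes and 29 of 54 muscle genes, but in 7 of 41 neuronal genes, 5 of 25 hypodermal and cuticle genes and 0 of 18 sperm genes.

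The long introns had a median length of 1488 nucleotides, against 55 for the shorter introns, and their quartiles were 1191 and 2181. Of the 1648, 1176 were under 2000 nucleotides, 396 were from 2000 to just under 5000, and 76 reached 5000 or more. The longest spanned 18615 nucleotides. They lay in 988 genes, or 17.2% of the 5761 genes with a listed intron, and 39 had no gene assigned. The chromosomes differed in their share of long introns, which was 8.69% on chromosome I, 6.29% on II, 9.17% on III, 8.03% on IV, 9.68% on V and 2.38% on X, where 22 long introns were listed.

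**Figure D1:**
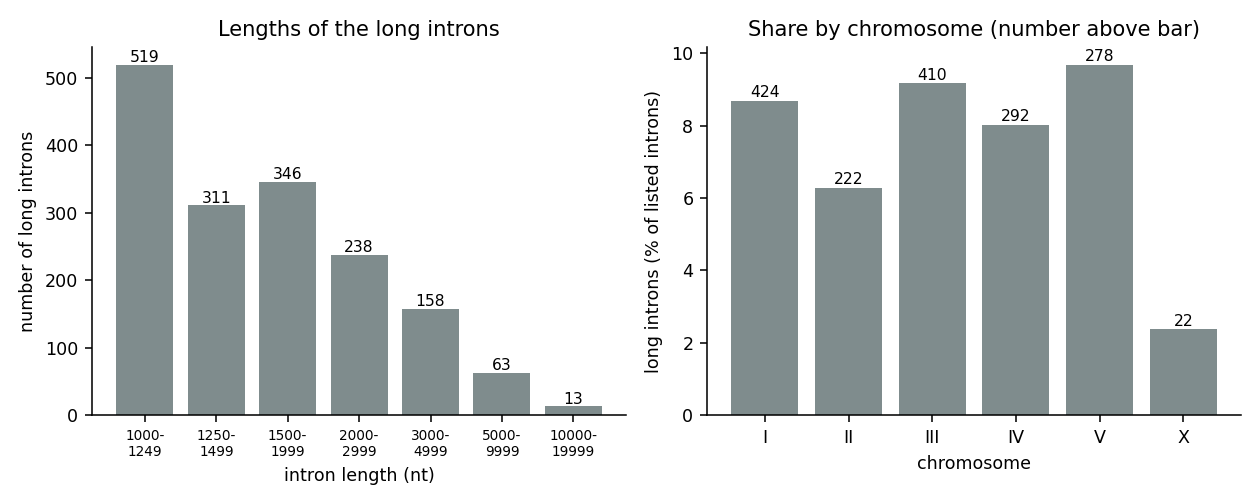
Number of long introns by length (left, bars, nucleotides) and the percentage of listed introns on each chromosome that were long (right, bars, with counts). The class of 1000 to 1249 nucleotides held 519 introns and that of 10000 or more held 13, and chromosome X had the lowest percentage, 2.38%.

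Most host genes carried a single long intron (631 genes), 209 carried a pair, 136 carried 3 to 5 and 12 carried 6 or more. The last group was led by egl-4, which encodes a cGMP-dependent protein kinase and had 9 long introns among 10 listed. It was followed by daf-2, the insulin and IGF receptor of the worm, and by gcn-1, a regulator of the translational stress response, each with 8 of 12. The spliceosome gene prp-6 had 7 of 9, and npp-8, which encodes a nuclear pore protein, had 7 of 10.

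Matching each intron by gene and length to a current annotation found 1545 of the long introns, or 93.8%. Of these, 1504 interrupted coding sequence, 24 lay in a 5′ untranslated region, 13 in a 3′ untranslated region and 4 in noncoding transcripts. A 5′ untranslated position made up 1.55% of the matched long introns, against 0.628% of the matched shorter introns. An annotated transcript start of the same gene lay inside 126 of the matched long introns (8.16%), against 0.913% of shorter introns. Whether transcription begins at these annotated starts was not tested. A protein-coding gene lay wholly inside 73 of the matched long introns and a noncoding gene inside 157. Long introns were less often the first listed intron of their gene than shorter ones, at 19.04% against 23.8%.

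The values just inside and just outside the length limit were alike in scale. The introns of 1000 nucleotides in pfd-2, a prefoldin subunit that helps fold actin and tubulin, snf-6, an acetylcholine transporter, and Y56A3A.28 had 32.1, 10.1 and 12.5 CPM (counts per 1000000 junction reads, scaled) after spk-1(RNAi), against 26.6, 14.5 and 12.2 CPM in control. The longest introns outside the limit, in zyg-8, a microtubule-binding kinase of the doublecortin family, Y92H12BR.2 and syp-5, a synaptonemal complex protein, had 15.5, 25.4 and 9.24 CPM after spk-1(RNAi), against 17.8, 24.5 and 9.59 CPM in control.

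Long introns made up 8.11% of the introns but carried fewer of the reads. Their share of junction reads was 4.30%, 4.29%, 4.79% and 4.90% in spk-1(RNAi) replicates 1 to 4, against 4.37%, 4.63%, 4.61% and 4.97% in control replicates 1 to 4. The means were 4.57% ± 0.319 after spk-1(RNAi) and 4.65% ± 0.245 in control (SD, n = 4 each), and the groups overlapped. The difference of -0.0772 percentage points was smaller than either SD, and it became 0.0124 without spk-1(RNAi) replicate 1, 0.0156 without spk-1(RNAi) replicate 2 and 0.0303 without control replicate 4. Introns of 46 to 60 nucleotides carried 46.1% of junction reads and those above 300 and under 1000 nucleotides carried 11.6%.

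A typical long intron had 18.8 CPM, the median over all 8 libraries, against 21.1 CPM for a shorter intron and 19.4 CPM for the other introns of the same host genes. The central 80% of long introns lay between 9.56 and 44.8 CPM, and the whole range ran from 3.17 to 1463 CPM. At the top stood an intron of 1291 nucleotides in perm-4, a gene of the eggshell permeability barrier, with 1581 ± 441 CPM after spk-1(RNAi) and 1346 ± 658 CPM in control (SD, n = 4 each). A second perm-4 intron, of 1160 nucleotides, had 974 ± 779 CPM after spk-1(RNAi) and 972 ± 905 CPM in control, and an intron of 1146 nucleotides in Y37D8A.19 had 945 ± 593 CPM after spk-1(RNAi) and 819 ± 694 CPM in control (SD, n = 4 each). The actin gene act-4 came next with an intron of 2081 nucleotides at 555 CPM after spk-1(RNAi) and 511 CPM in control. That intron is listed again 2 nucleotides away with nearly equal reads, so the pair may count the same splicing event, and reads of act-4 can also be shared with the near-identical actin genes.

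Each long intron was then set against the other listed introns of its gene, which removes differences in how much of the gene's RNA there was. The level within the gene was the log2 of an intron's reads over the mean reads of the gene's other introns, with 0.5 reads added to both. This could be computed for 1497 long introns, since 112 were the only listed intron of their gene and 39 had no gene. The median level was -0.14, and 59.6% of long introns lay below the mean of their neighbours, against -0.12 and 58.6% over all introns so measured. The values of 1328 long introns lay within 1 log2 unit of their neighbours, 115 lay further below and 54 further above.

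The level did not follow length within the long introns, with a Spearman correlation of 0.0284 across 1497 introns that share the same libraries. Position in the gene moved it more, though not alike in every library. Long introns listed first in their gene had a median level of -0.05 and later ones -0.17, while among shorter introns the first listed stood at 0.05 and the later ones at -0.16. In replicates 2 to 4 of both groups the first listed stood above the later ones in both length classes. In control replicate 1 the order was reversed, at -0.13 and -0.05 for long introns and -0.09 and -0.03 for shorter ones. The shorter introns were also reversed in spk-1(RNAi) replicate 1, at -0.09 and -0.04. Long introns that hold a transcript start of their own gene had a median of 0.01 (n = 121), against -0.16 for those without (n = 1317). This order also did not hold in every library. In replicate 1 those with a start stood at -0.27 after spk-1(RNAi) and -0.24 in control. All long introns stood at -0.08 and -0.06 in these libraries. In the remaining libraries those with a start stood between 0.05 and 0.16.

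**Figure D2:**
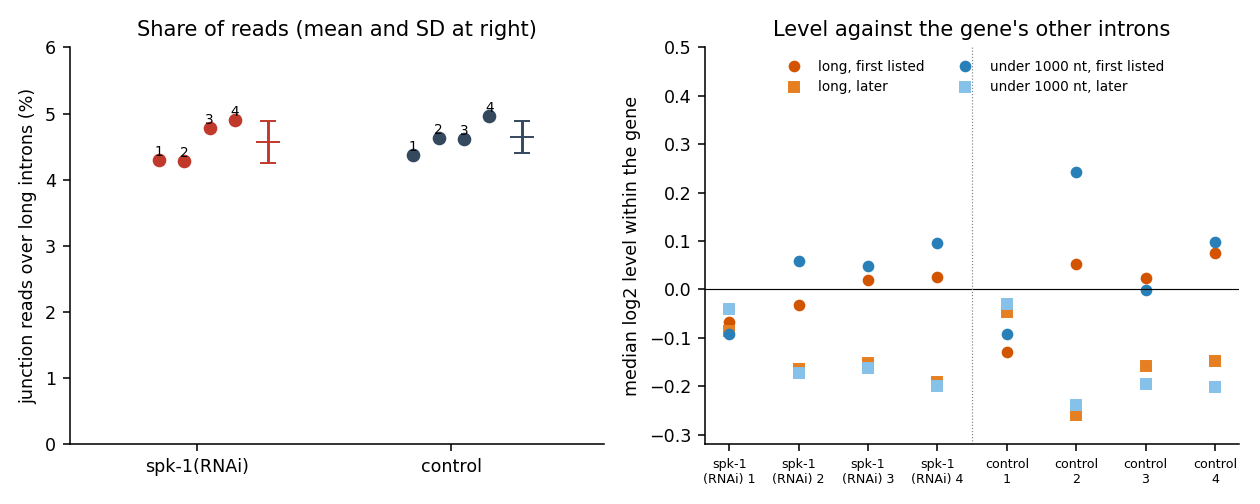
Percentage of junction reads over long introns in each library, with points numbered by replicate and the mean and SD of 4 libraries beside them (left), and the median log2 level within the gene in each library for long and shorter introns, first listed or later (right). The shares run from 4.29% to 4.90% after spk-1(RNAi) and from 4.37% to 4.97% in control, and overlap.

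Among the long introns farthest below their neighbours were some of abundant transcripts. An intron of 4498 nucleotides in vit-6, a yolk protein gene, had 2.42% ± 1.19 of the mean of its gene's other introns after spk-1(RNAi) and 2.64% ± 2.37 in control (SD, n = 4 each). An intron of 1365 nucleotides in cpg-1, an eggshell chondroitin proteoglycan, had 3.56% ± 0.488 after spk-1(RNAi) and 5.63% ± 4.65 in control. The intron of 1116 nucleotides ahead of the coding sequence of hsp-90, the cytosolic chaperone, had 7.57% ± 5.68 after spk-1(RNAi) and 9.04% ± 3.95 in control. In each of these genes the groups differed by less than the control SD, and reads of vit-6 can be shared with related yolk genes.

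An intron of 1740 nucleotides in unc-60, which encodes the actin depolymerising factor cofilin in muscle and non-muscle forms, had 12.6%, 62.2%, 12.6% and 11.01% of the mean of its gene's other introns in spk-1(RNAi) replicates 1 to 4. In control replicates 1 to 4 it had 10.98%, 73.2%, 12.3% and 10.1%. Replicate 2 was high in both groups and the remaining libraries were close together. At the other end, the intron of 8058 nucleotides in nprt-1, a nicotinate phosphoribosyltransferase of the NAD pathway, had 627% ± 618 after spk-1(RNAi) and 415% ± 377 in control, and that of 1173 nucleotides in ubc-13, a ubiquitin-conjugating enzyme, had 303% ± 82.3 after spk-1(RNAi) and 286% ± 61.6 in control (SD, n = 4 each).

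Whether reads over long introns differ after SPK-1 depletion was tested over all introns with edgeR's quasi-likelihood test and Benjamini-Hochberg adjustment at 0.05. The p-values were adjusted over all 20324 introns, and the shares given for all introns leave out those of spk-1. No long intron was called, 0 of 1648, and neither was any other intron (0%). At an unadjusted p under 0.05 there were 13 long introns, or 0.789%, against 0.802% of all introns. With the replicate block, 0 of 1648 were again called, against 0.0246% of all introns, and the lowest adjusted p of a long intron was 0.148, and 130 passed at an unadjusted p under 0.05 (7.89%, against 8.36%). Of the 10 introns of spk-1, the RNAi target, the edgeR fit without the block called 0 and the fit with it called 9. A count of 0 without the block therefore does not show that no intron changed. DESeq2 called 0 long introns without the block, where it called 0.00492% of all introns, and 2 with it, where it called 0.202%. In the deeper pairs 3 and 4 alone, edgeR called 4 long introns, or 0.243%, without the block, against 0.231% of all introns, and 20, or 1.21%, with it, against 1.36%. The 4 were in clec-266, C04F5.9, Y32B12B.2 and mdt-19. In bulk worms, fewer cells of a type and less RNA per cell cannot be told apart.

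The pair called by DESeq2 with the block was clec-266 and sms-1. The intron of 4118 nucleotides in clec-266, a C-type lectin gene on chromosome X (6618677 to 6622794, build ce10), had 93, 203, 1421 and 1101 reads in spk-1(RNAi) replicates 1 to 4, against 168, 69, 507 and 422 in control replicates 1 to 4. That is 44.4 ± 25 CPM after spk-1(RNAi) and 19.7 ± 7.69 CPM in control (SD, n = 4 each), with pair 1 level and pairs 2 to 4 higher after spk-1(RNAi). The log2 fold change was 1.09 with the block (SE 0.23, edgeR adjusted p 0.148) and the DESeq2 adjusted p was 0.0168. Against its own gene this intron stood at 103% ± 47.5 after spk-1(RNAi) and 84.8% ± 39.0 in control, and the edgeR within-gene test gave it an adjusted p of 1. The intron of 1720 nucleotides in sms-1, a sphingomyelin synthase, had 32.1 ± 31.4 CPM after spk-1(RNAi) and 67.2 ± 62.3 CPM in control, a log2 fold change of -1.01 with the block and a DESeq2 adjusted p of 0.0368.

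The fold changes of long introns leaned slightly downward. Their median log2 fold change was -0.06, against 0.00 over all introns, and 40.6% of them were above 0, against 50.2% of all introns. The medians followed length in order, being 0.02 for introns of up to 45 nucleotides, 0.02 at 46 to 60, 0.01 at 61 to 100, 0.00 above 100 and up to 300, -0.03 above 300 and under 1000, and -0.06 at 1000 or more. The shorter introns of the same host genes had a median of -0.02 and the introns of genes without a long intron 0.01. Every long intron had at least 21 reads in each control library, whereas counts of long introns went down to 4 after spk-1(RNAi), and the part of this in the medians was not tested. In pairs 1 to 4 the median of the long introns was -0.10, -0.06, -0.05 and -0.03. In the fit without the block the median moved when single libraries were left out, which leaves a pair incomplete. It was 0.003 without spk-1(RNAi) replicate 1, -0.022 without spk-1(RNAi) replicate 2, -0.014 without control replicate 3 and -0.013 without control replicate 4. It lay between -0.087 and -0.143 without any of the others. The fit with the block and all libraries gave a median of -0.053. With the block, 99 long introns were lower and 31 higher at an unadjusted p under 0.05, or 6.01% and 1.88%, against 4.44% and 3.92% of all introns.

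Within genes the differences centred near 0. The level of a long intron among its neighbours differed between spk-1(RNAi) and control by a median of -0.003 on the log2 scale, against 0.005 over all introns so measured. The medians in pairs 1 to 4 were -0.03, 0.04, 0.00 and -0.00, and 745 long introns were higher and 752 lower. The central 90% of differences lay between -0.46 and 0.41. Their SD over long introns was 0.27, against 0.28 over shorter introns, while the median SD between libraries of a single long intron was 0.56 after spk-1(RNAi) and 0.55 in control. The difference did not follow length, with a Spearman correlation of -0.066 across the 1497 introns.

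**Figure D3:**
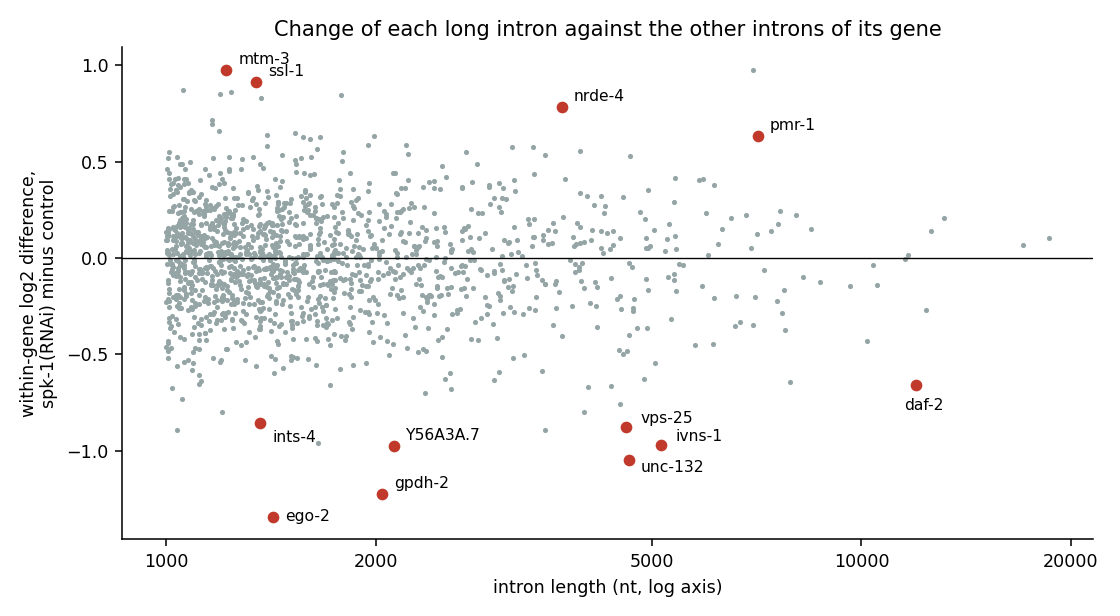
Difference in level within the gene between spk-1(RNAi) and control (vertical, log2) against intron length in nucleotides (horizontal, log axis) for the 1497 long introns, each point the difference of the means of 4 libraries. The points spread around 0 at every length, from -1.34 in ego-2 to 0.98 in mtm-3.

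The within-gene test of edgeR called 0 of 1497 long introns without the block, against 0% of the 18762 introns tested outside spk-1, and 2 passed at an unadjusted p under 0.05 (0.134%, against 0.0853%). With the block it again called 0, against 0.0107% of all introns, with 34 at an unadjusted p under 0.05 (2.27%, against 2.92%). The lowest adjusted p of a long intron was then 0.306. The within-gene test of limma called 0 long introns without the block, against 0% of all, where 14 had an unadjusted p under 0.05 (0.935%, against 1.28%), and 8 with it, or 0.534%, against 0.613% of all introns. In pairs 3 and 4 alone, edgeR called 0 long introns within genes without the block, against 0.0266% of all, and 0 with it, against 0.0906%. In each of these within-gene tests the share of long introns called at the adjusted threshold was no higher than that of all introns.

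**Figure D4:**
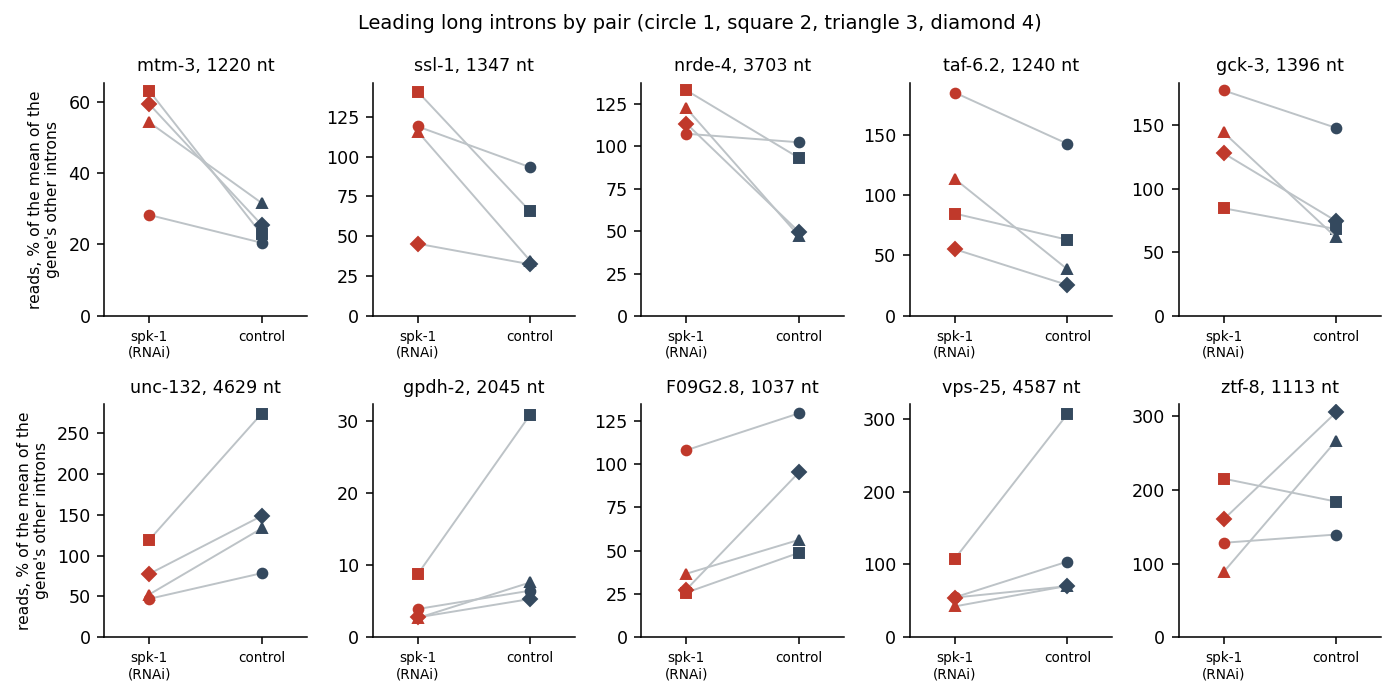
Reads over 10 long introns as a percentage of the mean of the gene's other introns in each library, spk-1(RNAi) left and control right, with lines joining libraries of the same replicate number (circle 1, square 2, triangle 3, diamond 4). The upper row shows introns that were higher after spk-1(RNAi), such as mtm-3 at 28.3% to 63.1% against 20.5% to 31.6%, and the lower row introns that were lower.

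Of the long introns that were higher within their gene, the one with the lowest p skips an exon of mtm-3 (T24A11.1), which encodes a lipid phosphatase of the myotubularin family. It runs from 3790821 to 3792040 on the minus strand of chromosome III (build ce10), 1220 nucleotides that span introns of 444 and 441 nucleotides and the 335-nucleotide exon between them. It had 49, 62, 621 and 524 reads in spk-1(RNAi) replicates 1 to 4, against 70, 26, 449 and 258 in control replicates 1 to 4. Because the deeper libraries yield more reads, its level is better read within the gene. It stood at 28.3%, 63.1%, 54.2% and 59.3% of the mean of the gene's other introns in spk-1(RNAi) replicates 1 to 4, against 20.5%, 22.8%, 31.6% and 25.5% in control replicates 1 to 4. It was higher after spk-1(RNAi) in 4 of 4 pairs, though replicate 1 after spk-1(RNAi) lay inside the control range. The means were 51.2% ± 15.7 after spk-1(RNAi) and 25.1% ± 4.80 in control (SD, n = 4 each), a ratio of 2.04. The within-gene log2 difference of edgeR was 0.99 without the block (adjusted p 1) and 0.92 with it (SE 0.23, adjusted p 0.336), and limma with the block gave 1.03 (adjusted p 0.013). The introns of 444 and 441 nucleotides are part of the reference, so these values are linked. Against the gene's introns under 1000 nucleotides that do not overlap this one, edgeR with the block gave 0.84 (adjusted p 0.656).

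The intron of 1347 nucleotides in ssl-1 (Y111B2A.22), a chromatin remodelling ATPase of the SWI2/SNF2 type, was the other long intron that limma with the block called higher (adjusted p 0.0143). It stood at 118.97%, 141%, 116% and 45.3% of its neighbours in spk-1(RNAi) replicates 1 to 4, against 93.4%, 65.6%, 34.6% and 32.4% in control replicates 1 to 4. It was higher in 4 of 4 pairs, with overlapping groups. The edgeR within-gene difference with the block was 0.86 (SE 0.23, adjusted p 0.610).

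The intron of 3703 nucleotides in nrde-4, a gene of nuclear RNA interference, holds a transcript start of nrde-4. It stood at 107%, 133%, 123% and 114% of its neighbours in spk-1(RNAi) replicates 1 to 4, against 102%, 93.2%, 47.2% and 49.6% in control replicates 1 to 4. Every spk-1(RNAi) library was above every control library, but the edgeR within-gene adjusted p with the block was 1. Introns of taf-6.2, a TFIID subunit, and gck-3, a kinase of the germinal centre kinase family, followed with 109% ± 55.5 and 134% ± 38.6 after spk-1(RNAi), against 67.4% ± 52.3 and 88.3% ± 40.2 in control (SD, n = 4 each). Both were higher in 4 of 4 pairs with adjusted p of 1 in edgeR with the block.

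Among the lower introns, that of 4629 nucleotides in unc-132, on chromosome V from 3687160 to 3691788 (build ce10), had the lowest p. It lies in the 5′ untranslated region and holds another transcript start of the gene. It stood at 47.0%, 119.05%, 52.3% and 77.5% of its neighbours in spk-1(RNAi) replicates 1 to 4, against 78.4%, 274%, 133% and 149% in control replicates 1 to 4. It was lower in 4 of 4 pairs, with replicate 2 the highest library of both groups. The means were 74.0% ± 32.9 after spk-1(RNAi) and 159% ± 82.6 in control, a ratio of 0.467. The edgeR within-gene difference with the block was -0.88 (adjusted p 0.306), and limma with the block called it (adjusted p 0.00522).

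An intron of 2045 nucleotides in gpdh-2, a glycerol-3-phosphate dehydrogenase, was used little in every library. It stood at 3.91%, 8.74%, 2.66% and 2.75% of its neighbours in spk-1(RNAi) replicates 1 to 4, against 6.46%, 30.9%, 7.60% and 5.30% in control replicates 1 to 4. It was lower in 4 of 4 pairs, and control replicate 2 was far above the rest. The edgeR within-gene difference was -1.24 with the block (SE 0.38, adjusted p 0.968).

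The largest within-gene difference downward, -1.34, was in ego-2, which encodes a Bro1-domain protein and has 2 listed introns. Its intron of 1424 nucleotides had 22, 5, 72 and 117 reads in spk-1(RNAi) replicates 1 to 4, against 59, 22, 158 and 172 in control replicates 1 to 4. It stood at 29.7% ± 15.2 of the other intron after spk-1(RNAi) and 74.8% ± 36.6 in control (SD, n = 4 each), lower in 4 of 4 pairs, with an adjusted p of 1 in edgeR with the block.

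The intron of 4587 nucleotides ahead of the coding sequence of vps-25, an ESCRT-II subunit of endosomal sorting, had 64.9% ± 29.3 after spk-1(RNAi) and 138% ± 114 in control (SD, n = 4 each), and was lower in 4 of 4 pairs. Its control mean included 306% in replicate 2, against 70.1% to 104% in the other control libraries. The edgeR within-gene test with the block did not call it (unadjusted p 0.0149), and neither did limma. Besides unc-132, limma with the block called 5 long introns lower. They were in Y32B12B.2 (3986 nucleotides, adjusted p 0.0166), phf-10, a PHD finger gene (0.0431), riok-1, a RIO kinase of ribosome assembly (0.0447), ztf-8, a zinc finger gene (0.045), and ints-4, an Integrator complex subunit (1365 nucleotides, 0.0471).

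The long introns of ints-4 did not move together. The intron of 1365 nucleotides had 70.2% ± 20.6 of its neighbours after spk-1(RNAi) and 132% ± 50.0 in control, and that of 2516 nucleotides 88.9% ± 25.4 after spk-1(RNAi) and 135% ± 27.8 in control (SD, n = 4 each). The intron of 1369 nucleotides lay the other way, at 172% ± 72.2 after spk-1(RNAi) and 96.2% ± 39.0 in control. Since each is part of the reference of the others, their values are linked.

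In 11 long introns the libraries of the groups did not overlap. Of these, 3 were higher after spk-1(RNAi), or 0.2% of the long introns against 0.235% of all introns measured, and 8 were lower, or 0.534% against 0.4%. The higher ones were in nrde-4, in acl-14, an acyltransferase gene (86.6% ± 7.31 after spk-1(RNAi) and 67.3% ± 7.24 in control), and in Y56A3A.7 (6984 nucleotides). Y56A3A.7 also held a lower one (2123 nucleotides), and these 2 introns are each other's only reference. The remaining lower ones included fars-2 and nars-2, mitochondrial aminoacyl-tRNA synthetase genes, at 89.1% ± 6.77 and 58.8% ± 13 after spk-1(RNAi), against 139% ± 42.3 and 91.2% ± 9.55 in control. Also among them were mix-1, a condensin subunit, at 64.6% ± 11.1 after spk-1(RNAi) and 95.4% ± 17.2 in control, ksr-2, a scaffold of the Ras pathway, at 154% ± 30.6 after spk-1(RNAi) and 212% ± 13.9 in control, and introns of phf-10, ints-4 and zipt-15, a zinc transporter gene.

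Where a long intron shares its donor or acceptor with another listed intron, the pair competes for that site, and the share of reads taken by the longer intron was followed. There were 27 such sites among 150 shared sites, in 21 genes. The mean share of the longer intron was higher after spk-1(RNAi) at 19 of them and differed by more than 10 percentage points at 4. An intron that shares both ends counts at both sites, so the 27 are not separate observations. The matching counts over all 150 shared sites are not given here. With edgeR's Simes p per site, 0 of the 27 were called without the block, where 0% of all shared sites were called and 1 of the 27 had an unadjusted p under 0.05 (3.7%, against 2.67%). With the block, 0 were called, against 3.33% of all shared sites, and 3 had an unadjusted p under 0.05 (11.1%, against 7.33%). The site-level F test of edgeR, which was not planned and was added as an alternative, called 0 of the 27 without the block, against 1.33%. With the block it called 2, or 7.41%, against 5.33%.

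Both sites called were those of the mtm-3 intron, which competes with the 444-nucleotide intron for the donor and the 441-nucleotide intron for the acceptor. At the donor it took 21.9%, 61.4%, 50.2% and 44.5% of reads in spk-1(RNAi) replicates 1 to 4, against 15.6%, 25.5%, 23.5% and 23.8% in control replicates 1 to 4. At the acceptor it took 37.1%, 41.6%, 68.9% and 74.1% in spk-1(RNAi) replicates 1 to 4, against 25.5%, 19.9%, 43.4% and 45.3% in control replicates 1 to 4. All 4 pairs were higher after spk-1(RNAi) at both sites, and only replicate 1 kept the groups from separating at the donor. The mean shares were 44.5% ± 16.6 after spk-1(RNAi) and 22.1% ± 4.45 in control at the donor, and 55.4% ± 18.8 after spk-1(RNAi) and 33.5% ± 12.7 in control at the acceptor (SD, n = 4 each).

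The mtm-3 call depended on the block and on the test. The planned Simes p without the block gave an adjusted p of 0.998 at both sites. The F test with the block gave adjusted p of 0.00478 at the donor and 0.00358 at the acceptor, the Simes p with the block 0.0583 and 0.0753, and the F test without the block 0.13 at the donor and 0.969 at the acceptor. Leaving out pair 2 moved the donor's adjusted p of the F test with the block to 0.0649, past the threshold, and the acceptor's stayed at or under 0.0444 whichever pair was left out.

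Besides mtm-3, a long intron shared both ends with other introns in ikke-1, pod-1 and rpl-41.1, so these 4 introns each join the outer ends of neighbouring introns. Their mean share was higher after spk-1(RNAi) at all 8 sites concerned, though of these 8 only the mtm-3 sites were called in any test. The reads of an intron count at both of its ends, so the 8 sites stand for 4 introns and are not separate observations. The smallest difference was at the rpl-41.1 acceptor, with 1.06% ± 1.63 after spk-1(RNAi) and 0.802% ± 1.19 in control (SD, n = 4 each). In ikke-1, a kinase related to the IKK family, the intron of 1257 nucleotides took 61.4% ± 8.59 of the acceptor after spk-1(RNAi) and 49.1% ± 5.43 in control, and 61.2% ± 7.63 of the donor after spk-1(RNAi) and 52.0% ± 6.43 in control (SD, n = 4 each). It was higher in 4 of 4 pairs at both, with an adjusted p of 0.352 at the acceptor in the F test with the block. In pod-1, an actin-binding coronin relative of cell polarity, the intron of 2626 nucleotides took 63.2% ± 5.83 of the donor after spk-1(RNAi) and 57.7% ± 8.12 in control. In rpl-41.1, a ribosomal protein gene whose reads can be shared with its near-identical copy, the longer intron took 57% and 48.0% of the donor in spk-1(RNAi) and control replicate 2, but under 2% in replicates 3 and 4 of both groups.

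**Figure D5:**
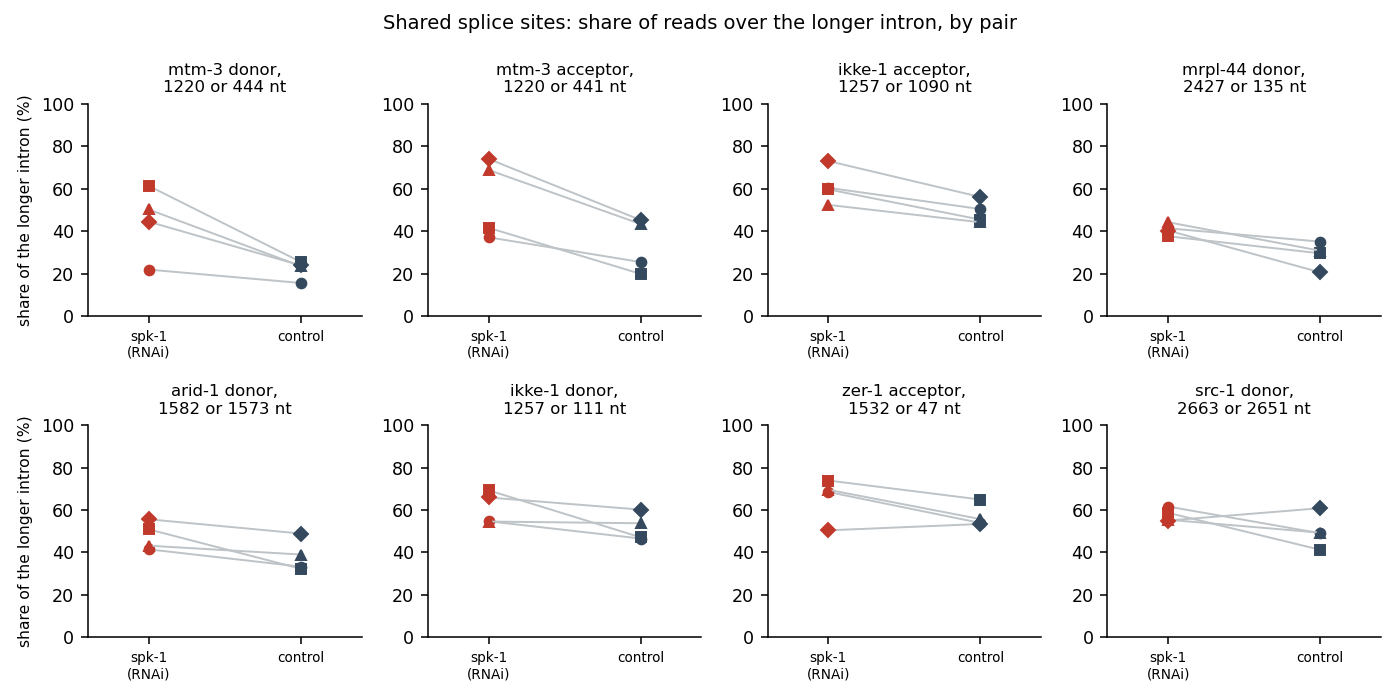
Share of reads taken by the longer intron at 8 shared splice sites (percent of the reads at that site) in each library, spk-1(RNAi) left and control right, with lines joining libraries of the same replicate number. The lines of mtm-3 and mrpl-44 all run higher after spk-1(RNAi), at means of 44.5% against 22.1% for the mtm-3 donor and 40.9% against 29.0% for the mrpl-44 donor.

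At the donor of mrpl-44, a mitochondrial ribosomal protein gene, an intron of 2427 nucleotides competes with one of 135. Its share was 41.4%, 37.6%, 44.2% and 40.3% in spk-1(RNAi) replicates 1 to 4, against 35.1%, 29.6%, 30.8% and 20.6% in control replicates 1 to 4. The groups did not overlap, but the edgeR Simes adjusted p with the block was 0.845. In ccr-4, a deadenylase of the CCR4-NOT complex, the share of the 1344-nucleotide intron at its acceptor was 87.8% ± 7.64 after spk-1(RNAi) and 92.7% ± 5.78 in control (SD, n = 4 each). It was lower in 4 of 4 pairs, and limma with the block called it (adjusted p 0.0293), beside the mtm-3 sites. Both mtm-3 sites belong to the same intron, and the share of all shared sites that limma called is not given here.

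At 8 of the 27 sites the competing introns differed by at most 15 nucleotides, 7 times at a common donor, so that the choice lies between closely spaced splice sites. There the longer intron's mean share was higher after spk-1(RNAi) at 4 and lower at 4, with differences between -3.30 and 9.42 percentage points. The highest was in arid-1 (introns of 1582 and 1573 nucleotides), at 47.8% ± 6.65 after spk-1(RNAi) and 38.4% ± 7.62 in control. In src-1, a Src-family tyrosine kinase (2663 and 2651 nucleotides), it was 57.7% ± 3.09 after spk-1(RNAi) and 50.2% ± 8.09 in control (SD, n = 4 each).

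Long introns in 5′ untranslated regions were looked at after unc-132 and vps-25 had been seen among the lower introns, so their values are a description. The level within the gene could be set for 22, all of them the first listed intron of their gene, and 17 were lower after spk-1(RNAi). The median difference was -0.37 on the log2 scale, and -0.13, -0.59, -0.33 and 0.01 in pairs 1 to 4. Shorter introns in 5′ untranslated regions had a median of -0.09, with 54 of 91 lower, and long introns listed first in their gene had -0.06. The median was farthest from 0 in pair 2 and near 0 in pair 4. Pair 2 was also the lowest in the sets beside it. Its median was -0.33 in shorter introns of 5′ untranslated regions, -0.19 in long introns listed first and -0.24 in shorter introns listed first.

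Among these 22, the intron of 11981 nucleotides in daf-2 had 75.2% ± 36.1 of its neighbours after spk-1(RNAi) and 118.9% ± 55.9 in control, and that of 5144 nucleotides in ivns-1, which encodes a kelch-repeat protein, had 23.2% ± 9.34 after spk-1(RNAi) and 47.2% ± 26.8 in control (SD, n = 4 each). The intron of 7089 nucleotides in pmr-1, a Golgi calcium pump, lay the other way at 65.1% ± 23.9 after spk-1(RNAi) and 49.0% ± 38.3 in control. None of the 22 was called by edgeR within its gene, with or without the block.

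The 5 longest introns differed between the groups by less than their SD. That of 18615 nucleotides in crh-1, the CREB transcription factor, had 38.9 ± 32.6 CPM after spk-1(RNAi) and 32.2 ± 14.5 CPM in control (SD, n = 4 each). T28B11.1 (17091 nucleotides), in which the annotation places 24 noncoding genes, had 10.7 ± 2.31 CPM after spk-1(RNAi) and 10.4 ± 3.26 CPM in control. The intron of 13145 nucleotides in teg-4, a splicing factor of the SF3b type, had 22.5 ± 5.77 CPM after spk-1(RNAi) and 18.6 ± 6.13 CPM in control. That of 12609 nucleotides in egl-4 had 39.9 ± 17.4 CPM after spk-1(RNAi) and 38.9 ± 21.5 CPM in control, and an intron of 12691 nucleotides with no gene had 4.79 ± 2.47 CPM after spk-1(RNAi) and 5.98 ± 2.56 CPM in control.

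In the 12 genes with 6 or more long introns, the within-gene differences of a gene's long introns had both signs. Most listed introns of these genes are long, and each is part of the reference of the others. Mixed signs therefore follow in part from the measure and do not show that the introns moved apart. The 9 of egl-4 had between 13.2 and 52.2 CPM over all libraries, and their within-gene differences ran from -0.36 to 0.24, with 6 higher after spk-1(RNAi). The 8 of daf-2 had between 9.13 and 17.9 CPM and differences from -0.66, in the 11981-nucleotide intron, to 0.24, with 4 higher. The 7 of prp-6 had between 15.5 and 31.2 CPM and differences from -0.10 to 0.22.

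Gene groups were described with lists chosen for adult worms and for splicing regulation. No long intron of any list was called by edgeR within its gene, with or without the block, and 1 muscle intron had an unadjusted p under 0.05 with the block. Genes of RNA binding and splicing regulation held 32 long introns in 18 genes, with a median within-gene difference of -0.02. Among them uaf-1, the large subunit of the U2AF splicing factor, had an intron of 1850 nucleotides at 170% ± 51.1 of its neighbours after spk-1(RNAi) and 165% ± 50.1 in control, and mex-3, a KH-domain translational regulator, one of 2769 nucleotides at 98.2% ± 45.5 after spk-1(RNAi) and 99.7% ± 50.4 in control (SD, n = 4 each).

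Signalling and small GTPase genes held 43 long introns in 23 genes (median -0.02), with rho-1, a small GTPase of the cytoskeleton, at 106% ± 15.1 after spk-1(RNAi) and 108% ± 30.1 in control. Transcription and chromatin genes held 24 in 14 (median -0.04), among them atf-7, a bZIP transcription factor, at 116% ± 52.6 after spk-1(RNAi) and 115% ± 80.9 in control (SD, n = 4 each). Germline and oocyte genes held 16 in 11 (median -0.03). Of these, pie-1, a zinc finger protein of germline fate, stood at 102.5% ± 35.2 after spk-1(RNAi) and 79.2% ± 22.2 in control, higher in 4 of 4 pairs without being called.

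Adhesion and cytoskeleton genes held 16 in 10 (median 0.00), including the cadherin hmr-1 at 140% ± 75.7 after spk-1(RNAi) and 139% ± 67.9 in control. Muscle genes held 12 in 8 (median 0.03), including mlc-3, a myosin light chain, at 106% ± 16.97 after spk-1(RNAi) and 95.4% ± 25.5 in control (SD, n = 4 each). Neuronal genes held 4, intestinal genes 1, and hypodermal and sperm genes 0. Within genes the neuronal median was 0.17 from 2 introns and the intestinal value 0.10 from 1, against a median of 0.005 over all introns measured.

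The authors' deposited table of junction tests gave p under 0.01 to 33 of the 1648 long introns, or 2.0%, against 1.23% of all introns outside spk-1. In the authors' deposited table of exon bins, 10830 of the 112784 bins lay in genes with a long intron and 0 of these were called. The 4 bins called in that table were all in spk-1.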

How the data were processed

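Poly(A) RNA of whole adult worms was sequenced in 8 libraries. TopHat 1.4.1, Bowtie2 2.0.0 and build ce10 are named, without their roles, per the submitters' processing notes. The deposited junction table gives whole-number read counts per intron and library, a ratio for each numbered pair (RNAi over control) and a p-value per intron, all by the authors, and the authors' deposited exon-bin table gives a mean normalized signal and p-values for each bin. How these were computed is not given in the sources used here. Every long intron listed has at least 21 reads in each control library, so a long intron used mainly after RNAi may be missing. A second column headed as spk-1(RNAi) replicate 1 was taken as spk-1(RNAi) replicate 4, because the deposited ratio of pair 4 equals its quotient in 100% of introns.

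The members and gene lists were chosen with earlier results of these data known. Counts were tested over all introns with R 4.3.3, edgeR 4.0.16 (filterByExpr, TMM, quasi-likelihood test; diffSpliceDGE within genes having at least 2 listed introns and within shared splice sites, with no term but the group) with p-values adjusted by Benjamini-Hochberg at 0.05. DESeq2 1.42.0 and limma 3.58.1 (voom, diffSplice) were alternatives. At shared sites the planned p was the Simes p per site, and the site-level F test was added. The tests were run on simulated counts with known fold changes. Those counts held no differences between replicate numbers, so they do not show how the tests perform with the replicate structure of these libraries. Levels within the gene used 0.5 added reads. CPM are counts per 1000000 junction reads after TMM scaling. Of 20349 listed introns, 25 were on both strands and counted once. Introns were matched by gene and length to annotation WBcel235, used for structure only. No sequence is printed, because no genome of build ce10 was used here.

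Libraries with the same replicate number deviated together from group means, at correlations of 0.870, 0.653, 0.660 and 0.733 in pairs 1 to 4. Fits with the block are therefore given beside the planned fits without it. Deviations of libraries with different numbers were not compared. Levels in spk-1(RNAi) replicate 1 correlated at 0.974 with control replicate 1 and 0.747 with control replicate 2. Levels in spk-1(RNAi) replicate 3 correlated at 0.938 with control replicate 3 and 0.932 with control replicate 4, so the number set its pair apart less there. Introns named were those called in any fit, those with the lowest p within genes, the longest, the most abundant, those at shared sites, those nearest the length limit and the most abundant of each gene list. Introns lowest or highest within their gene, those whose groups do not overlap, those with the largest within-gene difference, those of long 5′ untranslated regions and those in genes with many long introns were added after their values were seen. Total counts per library, given in the text, limit precision at weakly used introns.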

Additional observations from a re-analysis of the deposited data

Results flagged for a closer look

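Among 196 groups of 4 libraries looked at, 18 held a library whose gap to the nearest other library exceeded Dixon's 95% limit, and chance gives about 1 in 20 such groups. Of the 18, 11 were in replicate 2 and 8 in control replicate 2, the library with the fewest junction reads. All values but the last are reads as a percentage of the mean of the gene's other introns.

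Control replicate 2 was above the other control libraries in crh-1 (318%, the others 109% to 140%), vps-25 (306%, the others 70.1% to 104%), unc-60 (73.2%, the others 10.1% to 12.3%), rpl-41.1 (92.4%, the others 0.7% to 15.3%), rme-1 (65.9%, the others 12.6% to 18.2%), gpdh-2 (30.9%, the others 5.3% to 7.6%), cpg-1 (12.6%, the others 2.65% to 4.06%) and vit-6 (6.16%, the others 1.23% to 1.9%). The vps-25 and gpdh-2 introns are among the lower ones named in the text.

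In spk-1(RNAi) replicate 2, unc-60 (62.2%, the others 11% to 12.6%), rpl-41.1 (133%, the others 0.637% to 20.3%) and atf-7 (194%, the others 79.7% to 96.7%) stood above. In spk-1(RNAi) replicate 3, zer-1 stood above (173%, the others 64.2% to 67.5%) and ost-1 below (98.7%, the others 132% to 136%). In spk-1(RNAi) replicate 1, F09G2.8 stood above (108%, the others 25.8% to 36.6%). In control replicate 1, gck-3 (148%, the others 61.9% to 74.8%) and acl-14 (78%, the others 63% to 65.1%) stood above and uba-1 below (9.03%, the others 16.6% to 17.5%). The zyg-8 intron just outside the length limit had 10.2 CPM in spk-1(RNAi) replicate 3, the others 16.8 to 17.8 CPM.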

How the results depend on the processing

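The count of long introns called on reads, 0, became 4 in pairs 3 and 4 alone and 20 there with the replicate block, 2 with DESeq2 and the block, 1 with the length limit at 500 nucleotides and the block, and 0 to 1 when each pair was left out with the block. The count within genes, 0, became 8 with limma and the block. The count at shared sites, 0, became 2 with the site-level F test and the block, 2 with that test in pairs 3 and 4 alone and the block, 1 to 2 with that test and the block when each pair was left out, 1 with a mean of at least 100 reads and the block, 1 with the limit at 500 nucleotides and the block, and 3 with limma and the block. No other alternative tried moved these counts. The share of all shared sites that goes with the limma count at shared sites is not given here. The median log2 fold change, -0.0556, ran from -0.143 to 0.00307 when single libraries were left out. The median level, the median within-gene difference and the share of reads moved by less than the spread between replicates under all alternatives tried. Of 1201 values of 47 named introns and sites, 5 changed sign: src-1 at its donor was -0.0119 (log2 usage) in pairs 3 and 4 alone with either site test, and rme-1 at its acceptor was 0.0167 without spk-1(RNAi) replicate 3, and 0.0777 with the replicate block and pair 3 left out with either site test (-0.307 with pair 1 left out). The causes were not tested. Depth limits weakly used introns most, such as gpdh-2.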
